A study of Homo sapiens with 72 samples.

Results

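The response of unedited HEK293 Flp-In T-REx cells (WT) 3 h after ultraviolet (UV) irradiation was measured by sequencing polyadenylated RNA. The 3 libraries of WT cells at 3 h were set against the 3 libraries of untreated WT cells (0 h), 6 of the 72 libraries in the series, and each gene's change was read against that of genes of like span, the distance from the first to the last base of the gene on GRCh38. HEK293 Flp-In T-REx cells derive from human embryonic kidney cells immortalised with adenovirus genes, and hold an engineered site into which transgenes can be recombined. The WT cells carry no knockout, come from 1 line and received neither the ATR inhibitor nor its solvent. The series text gives irradiation and then 3 h of recovery, while the sample labels give only the time and the treatment "none", and neither names a UV dose. Of the other groups, only those at 3 h and at 0 h of the 3 edited lines (a CSB knockout and 2 STK19 knockouts, 18 libraries) were compared with WT. No unirradiated cells at 3 h were among the groups, so irradiation and time in culture cannot be told apart.

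UV light joins neighbouring pyrimidines in DNA, and RNA polymerase II stalls where it meets such a lesion in the transcribed strand. A gene that spans more DNA offers more places for a lesion, and its transcript takes longer to finish. Stalled polymerase calls in transcription-coupled repair, and stress kinases, p53 and the release of P-TEFb, the kinase that lets paused polymerase elongate, act in the same hours. Polyadenylated RNA holds what was made before irradiation as well as after it, so the levels depend on synthesis and on decay, and in the absence of an added standard each is relative to the rest of the library. More cells making a transcript and more transcript per cell cannot be told apart in such bulk RNA.

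The libraries held 71.3, 92.2 and 78.5 M counts (M, 10 to the power 6) at 3 h and 46.2, 46.3 and 77.3 M at 0 h. Replicate 1 stood apart in both groups. Its counts differed from those of replicates 2 and 3 with a chi-square per gene of 183 to 188 at 3 h and 35.6 to 37.7 at 0 h, against 4.94 and 3.85 between replicates 2 and 3. The deviation of replicate 1 from its group mean ran against transcript GC content (Spearman -0.81 at 3 h and -0.83 at 0 h, across genes), while that of the other 4 libraries ran with it (0.68 to 0.81). Deviations from a group mean cancel within the group, so the opposite sign of the other libraries is largely built in. All 10 markers of HEK293 cells were detected, with a summed level of 2001 to 2056 CPM (counts per M counts) at 3 h and 1418 to 1504 CPM at 0 h. The sum does not stand for each marker: by the test given below 6 rose and 3 fell, the lowest at -2.34 on the log2 scale. Summed markers of fibroblasts, blood, kidney tubule and hepatocytes were at most 16.3 CPM in every WT library. Those of squamous epithelium, nearly all of them from KRT10, stood at 27.9 to 39.4 CPM at 3 h and 16.3 to 19.1 CPM at 0 h. Their part in the results was not tested.

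Of 15470 genes tested, 9653 changed at 3 h (62.4%; edgeR quasi-likelihood test, Benjamini-Hochberg adjusted p under 0.05). There were 5192 rises (33.6%) and 4461 falls (28.8%). Changes of at least 2-fold comprised 799 rises (5.16%) and 1152 falls (7.45%), and changes of at least 4-fold 325 rises and 126 falls. The 3 libraries at 3 h did not overlap the 3 at 0 h for 8066 genes (52.1%), of which 7680 were called (49.6% of those tested). The median log2 change over all tested genes was 0.06. With replicate 1 of both groups left out, 4790 genes rose and 4329 fell. The split depended on how the libraries were scaled. Scaling by library totals in place of the trimmed mean of M values (TMM) lowered the median change by 0.20 on the log2 scale, and 3079 genes then rose and 6152 fell. The p-values and SEs take their spread from a fit on all 72 libraries of the series. A fit on the 6 WT libraries alone made 5925 calls, with 2508 rises and 3417 falls. Levels below are CPM at TMM-scaled library size, and a mean is given with the SD over 3 libraries.

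The change followed gene span. Among 708 genes spanning under 3 kb the median log2 change was 0.44, with 350 rises and 43 falls. Genes of 3 to 10 kb had a median of 0.39 and those of 10 to 30 kb one of 0.25. From 30 to 100 kb the median was -0.09, and 1922 of 4975 genes fell against 1131 that rose. Among 2475 genes of 100 to 300 kb the median was -0.41, with 232 rises and 1439 falls, and among 640 genes of over 300 kb it was -0.43, with 48 rises and 352 falls. The running median, taken over each gene and the 200 genes on either side of it in order of span, was highest at 3.3 kb (0.47), first went below 0 at 36.5 kb, and was lowest at 361 kb (-0.51). It did not go on falling with span: it stood at -0.44 at 150 kb and at -0.43 at 1000 kb. The class medians computed in each replicate pair differed by an SD of at most 0.06, less than the steps between the classes from 3 to 300 kb. With library totals the class medians ran from 0.24 under 3 kb to -0.63 over 300 kb, so that the order was kept and the level moved. The spread within a class was wide, and the central 80% of genes of 100 to 300 kb lay between -1.52 and 0.27.

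**Figure D1:**
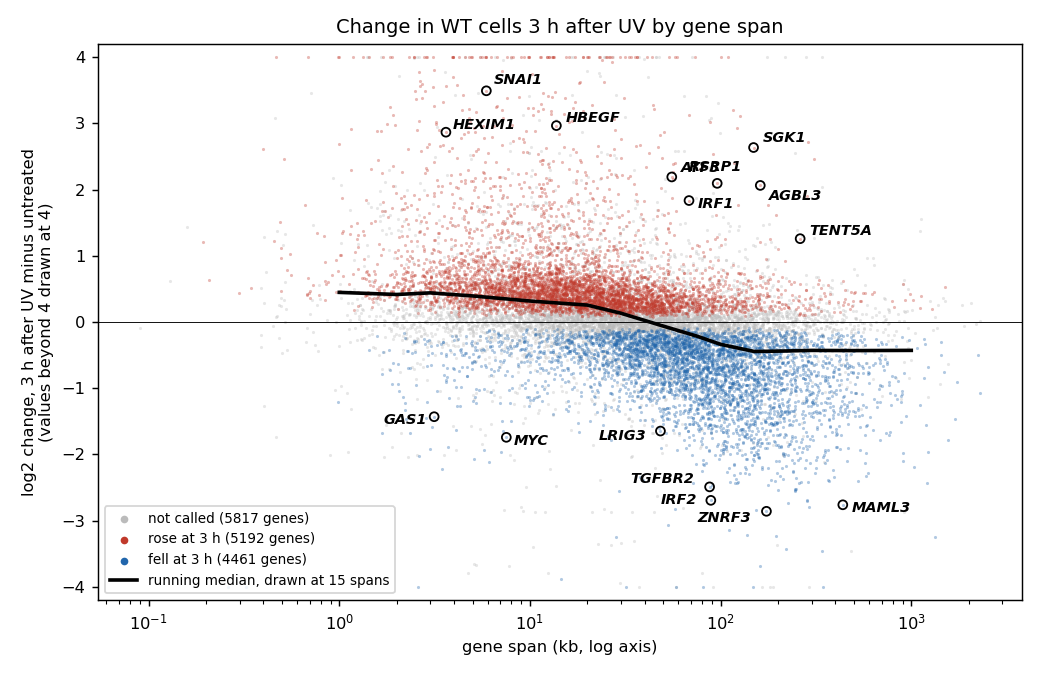
Log2 change (3 h after UV minus untreated, WT cells) of each tested gene against its span in kb on a log axis, with rises in red, falls in blue, genes not called in grey and the running median in black. The running median goes below 0 at 36.5 kb and lies between -0.44 and -0.43 at the 5 spans drawn from 150 to 1000 kb. The value at 1000 kb is the same for all of the longest genes. Circled genes are among those described with their values in the text.

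Exonic length, the bases that remain in the processed transcripts, divided the long genes further. Among genes of 100 to 300 kb, those in the lowest tertile of exonic length (up to 2.667 kb, 228 genes) had a median log2 change of 0.11. The middle tertile of that span class (600 genes) had -0.24, and the highest tertile (from 4.762 kb, 1627 genes) had -0.52, where 68.1% of genes fell and 5.04% rose. For spans of over 300 kb the medians were 0.06, -0.10 and -0.57 from the lowest to the highest tertile. The order of the tertiles was the same in each of the 3 replicate pairs in both of these span classes. Across all tested genes the change had a Spearman correlation of -0.50 with span, -0.45 with exonic length, -0.26 with exon number and 0.16 with GC content. These properties move with one another across genes, and genes are not independent replicates. Within each tertile of GC content the class medians still ran downward with span up to 300 kb, for example from 0.52 at 3 to 10 kb to -0.36 at 100 to 300 kb in the lowest tertile.

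**Figure D2:**
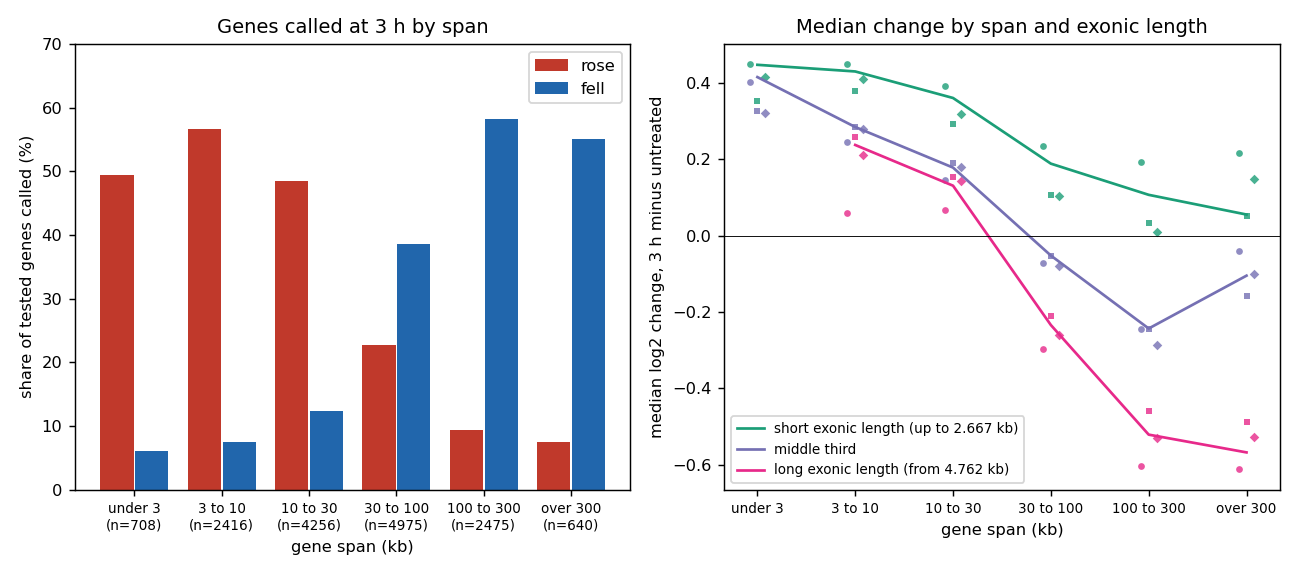
Left, the share of tested genes that rose or fell at 3 h against untreated in each span class. Right, the median log2 change by span class for tertiles of exonic length (lines from the fit, circles, squares and diamonds from replicate pairs 1, 2 and 3; groups under 20 genes not drawn). In the 2 longest span classes the genes of long exonic length lie lowest and those of short exonic length stay above 0.

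The 12 largest rises, among genes whose mean log2 CPM was at least 1 and whose groups did not overlap, were those of SPEF1, SNAI1, IER5L, DLL4, VASN, SERTAD1, FOSB, LFNG, CCN2, HBEGF, HEXIM1 and PHLDA1. The longest of them spans 16.6 kb. SNAI1, a zinc finger repressor of E-cadherin, had 17.1, 21.1 and 22.7 CPM at 3 h and 1.55, 2.01 and 1.84 CPM at 0 h, a log2 change of 3.49 ± 0.13 (SE; edgeR adjusted p = 5.79e-32). HBEGF, which encodes a ligand of the EGF receptor, had 54.8, 51.5 and 49.9 CPM at 3 h and 7.08, 5.84 and 6.97 CPM at 0 h (log2 change 2.97 ± 0.05). SERTAD1, a CDK4-binding transcriptional regulator, had 89.1, 102 and 110 CPM at 3 h and 9.05, 11.8 and 11.7 CPM at 0 h (log2 change 3.20 ± 0.09). In all 3 genes the lowest library at 3 h was several times the highest at 0 h.

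HEXIM1, the inhibitor that holds P-TEFb inactive in the 7SK particle, stood out by its counts. The gene is a single exon of 3.6 kb at chr17:45148475-45152099 on GRCh38. It reached 511, 606 and 615 CPM at 3 h, against 76.3, 80.1 and 80.8 CPM at 0 h, a log2 change of 2.87 ± 0.04 (edgeR adjusted p = 1.01e-48). FOSB, a subunit of the AP-1 transcription factor, had 14.3, 17.2 and 18.6 CPM at 3 h and 1.89, 1.91 and 2.11 CPM at 0 h (log2 change 3.07 ± 0.10). CCN2, a secreted matrix protein and a target of YAP, had 28.7, 25.2 and 27.2 CPM at 3 h and 3.64, 2.83 and 3.63 CPM at 0 h (log2 change 2.99 ± 0.07). That the groups did not overlap was a condition of the choice for these genes too.

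Of the 12 genes with the largest rises 11 had a promoter window, and HEXIM1, FOSB and CCN2 were the 3 that held the TATAAA element, each a like distance before the start. The 100 bases before their starts are shown for that reason, from the RefSeq promoter table (GRCh38.p14), 5′ to 3′ on the strand of the gene, with the element in capitals. Its first base lies at -29 in HEXIM1 (chr17:45148375-45148474, plus strand), at -30 in FOSB (chr19:45467896-45467995, plus strand) and at -32 in CCN2 (chr6:131951373-131951472, minus strand).
HEXIM1: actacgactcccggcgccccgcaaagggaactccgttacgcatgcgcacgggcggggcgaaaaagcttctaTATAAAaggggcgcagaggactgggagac
FOSB: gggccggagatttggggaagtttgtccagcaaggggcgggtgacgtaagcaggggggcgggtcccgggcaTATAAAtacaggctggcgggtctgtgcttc
CCN2: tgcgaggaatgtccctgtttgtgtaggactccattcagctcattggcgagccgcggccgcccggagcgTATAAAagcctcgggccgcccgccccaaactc
Both strands of the 250 bases before the start were searched for TATAAA, for TGACGTCA and TGANTCA (the letters bound by CREB and AP-1 factors) and for the CArG box, and a match is a description and not a site. TATAAA was present in 20.9% of 215 matched genes that rose at least 4-fold, in 19.3% of 571 that rose at least 2-fold, in 12.5% of 930 that fell at least 2-fold, and in 9.08% of all 12136 tested genes with a window. Among genes under 10 kb alone it was present in 22.7% of those that rose at least 2-fold and in 10.5% of all tested. The CArG box was present in 4.19% of genes that rose at least 4-fold and in 1.58% of all tested, TGACGTCA in 2.33% and 3.29%, and TGANTCA in 4.65% and 6.23%. No test was made of these shares.

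The 12 largest falls, under the same conditions, were those of ZNRF3, RGL1, MAML3, TGFBR3, LHFPL2, IRF2, BCAR3, FGD4, TMCC1, LRCH1, CPEB3 and STARD13. They span 88.9 to 437.4 kb. ZNRF3, a ubiquitin ligase that removes Frizzled receptors from the membrane, had 4.17, 4.67 and 5.54 CPM at 3 h and 31.7, 35.4 and 37.2 CPM at 0 h (log2 change -2.86 ± 0.10, edgeR adjusted p = 5.35e-31). TGFBR3, the TGF-beta coreceptor betaglycan, had 5.16, 4.56 and 4.62 CPM at 3 h and 34.1, 29.8 and 31.0 CPM at 0 h (log2 change -2.73 ± 0.08). LRCH1, a leucine-rich repeat protein, had 3.99, 3.74 and 3.13 CPM at 3 h and 20.9, 20.4 and 21.7 CPM at 0 h (log2 change -2.54 ± 0.09). Every library at 3 h lay below every library at 0 h, as the choice of these genes required. Several of the 12 encode signalling proteins: RGL1 activates Ral, FGD4 activates Cdc42, BCAR3 is an SH2 adaptor and MAML3 is a coactivator of Notch. MAML3, with 1.16, 1.38 and 1.78 CPM at 3 h and 9.24, 9.68 and 10.48 CPM at 0 h, is the longest.

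**Figure D3:**
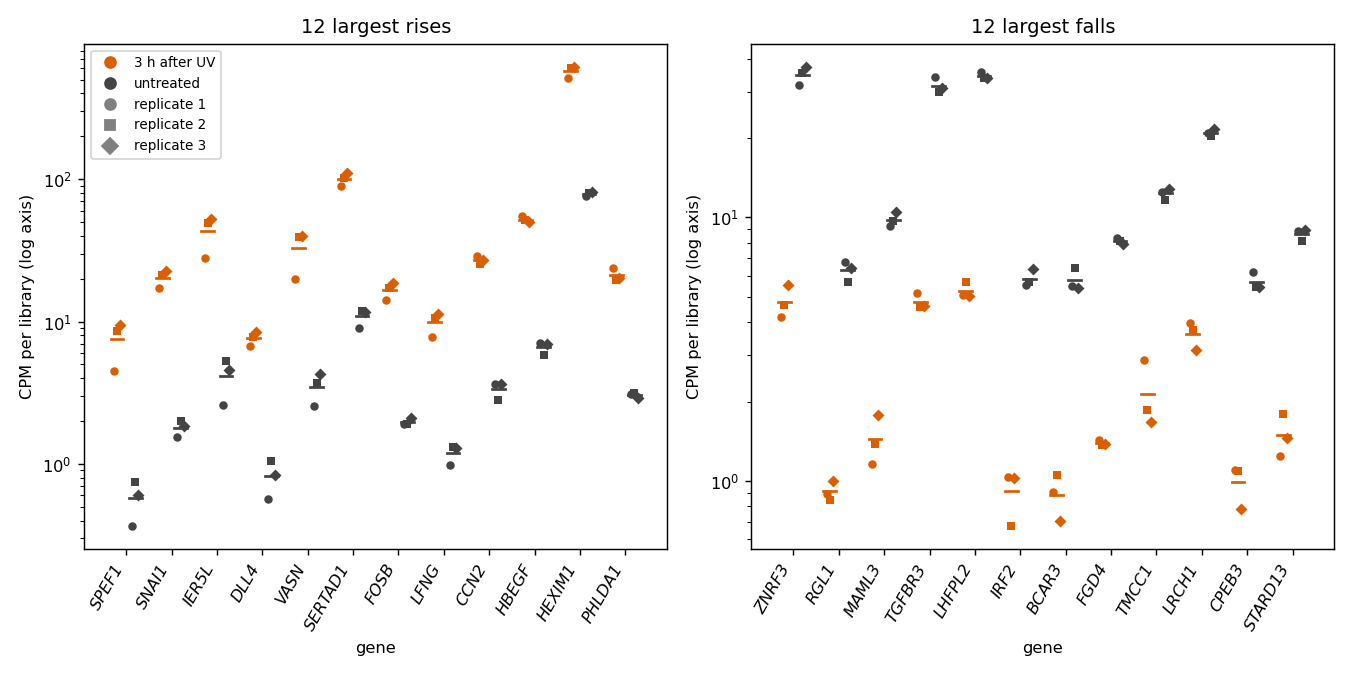
CPM in each WT library (log axes) of the 12 genes with the largest rise and the 12 with the largest fall, 3 h after UV in orange and untreated in grey, bars for group means and marker shapes for replicates. The genes were chosen among those whose groups do not overlap. Replicate 1 lies below replicates 2 and 3 in both groups for all the rises drawn except CCN2, HBEGF and PHLDA1. Among the falls it does so for ZNRF3 and MAML3.

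Span left much of the response undescribed: 8707 genes (56.3%) departed from genes of like span, 4203 above (27.2%) and 4504 below (29.1%), by the same edgeR test with the running median at each gene's span taken as the null. The departure is the log2 change minus that running median. The running median comes from these same changes and is set without an error of its own, so a near-even split above and below is built in. Without replicate 1 of both groups 8031 genes departed, and the fit on the 6 WT libraries alone found 4753.

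Among short genes, MYC departed furthest below. This growth-promoting transcription factor, 7.5 kb long, had 46.0, 46.4 and 47.2 CPM at 3 h and 146, 161 and 159 CPM at 0 h, a log2 change of -1.74 ± 0.05 where genes of its span had a running median of 0.40, and so a departure of -2.15 (adjusted p = 6.42e-38). The next were RAB3A, a GTPase of vesicle exocytosis (departure -2.04), SLC16A13, of the monocarboxylate transporter family (-2.03), and GAS1, a Hedgehog coreceptor made from a single exon (-1.88). GAS1 had 18.3, 23.9 and 23.4 CPM at 3 h and 49.8, 65.3 and 61.8 CPM at 0 h. Short genes that fell were uncommon, 225 of the 3124 under 10 kb, and 45 of them fell at least 2-fold. From 10 to 50 kb the departures furthest below were those of SLC16A6 (-1.71), ZBTB7B (-1.65), LRIG3 (-1.61) and INSIG2 (-1.58), the last of which retains the sterol sensor SCAP in the endoplasmic reticulum. The 4 genes furthest above their span in each of these 2 classes were among the 12 largest rises, except for HAP1, the huntingtin-associated protein (2.33).

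Long genes that rose were uncommon too: 280 of 3115 genes of at least 100 kb, 20 of them at least 2-fold. SGK1, the serum- and glucocorticoid-induced kinase, is annotated over 148.9 kb and had 24.5, 22.3 and 21.7 CPM at 3 h and 3.78, 3.97 and 3.34 CPM at 0 h. Its log2 change of 2.64 ± 0.09 lay 3.08 above genes of its span (adjusted p = 7.45e-37). RSRP1, ATF3 and IRF1, annotated over 96.0, 55.4 and 68.3 kb, departed by 2.35, 2.28 and 2.08. ATF3, a stress-induced transcription factor of the ATF/CREB family, had 143, 140 and 136 CPM at 3 h and 31.8, 30.9 and 29.1 CPM at 0 h. Over 150 kb the largest departures above were those of AGBL3, a tubulin deglutamylase (2.51), TENT5A, a poly(A) polymerase (1.68), MUC16, a cell-surface mucin (1.65), and NEDD9, a scaffold of the CAS family (1.55). AGBL3 had 14.5, 8.92 and 9.33 CPM at 3 h and 3.05, 2.05 and 2.68 CPM at 0 h. MUC16, with 14.7, 34.5 and 30.4 CPM at 3 h and 11.2, 11.4 and 11.9 CPM at 0 h, was close to its level at 0 h in replicate 1.

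The annotated span is not the length of the usual transcript for some of these genes. The median extent of the coding transcripts in GENCODE 29 (basic set) was 6.7 kb for SGK1, 4.3 kb for RSRP1, 8.3 kb for ATF3, 7.2 kb for IRF1 and 7.0 kb for TENT5A. It was 155.4 kb for AGBL3 and 132.5 kb for MUC16. Of the genes of at least 100 kb that rose, 14.6% had a median transcript extent under 30 kb, compared with 1.52% of those that fell and 3.97% of all tested. With the running median taken over transcript extent, an alternative added after the data were seen, the departures were 2.24 for SGK1, 1.73 for RSRP1, 1.85 for ATF3, 1.47 for IRF1 and 0.89 for TENT5A, and 2.54 for AGBL3 and 1.67 for MUC16. All 7 were still called.

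Long genes that fell beyond their span included IRF2, a repressor of interferon-regulated genes, with 1.04, 0.675 and 1.03 CPM at 3 h and 5.53, 5.68 and 6.35 CPM at 0 h (departure -2.46). TGFBR2, the type II TGF-beta receptor, had 2.64, 2.42 and 2.58 CPM at 3 h and 14.3, 14.1 and 14.5 CPM at 0 h (departure -2.21). SPRED2, an inhibitor of the Ras to ERK pathway, had 7.39, 7.22 and 8.20 CPM at 3 h and 40.9, 40.8 and 41.5 CPM at 0 h (departure -2.08). These 3 genes span 87.5 to 121.8 kb. Over 150 kb ZNRF3 (-2.45), RGL1 (-2.36), LHFPL2 (-2.31) and TGFBR3 (-2.31) departed furthest below.

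**Figure D4:**
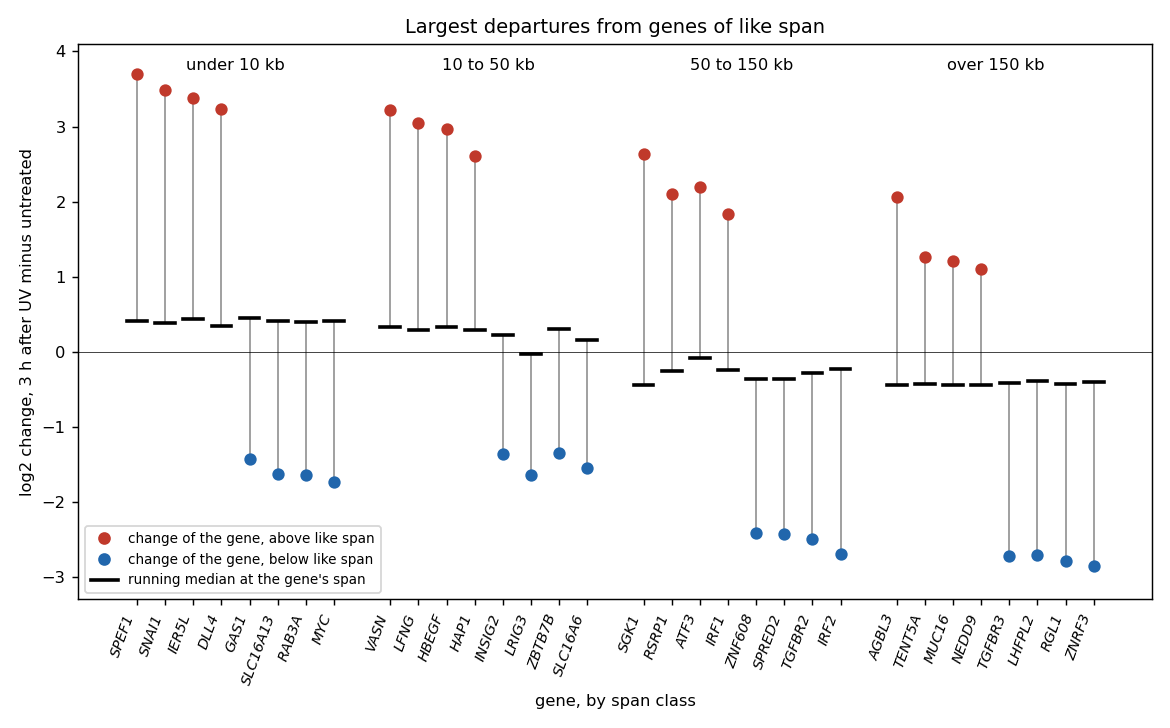
Log2 change (3 h after UV minus untreated) of the 4 genes furthest above (red) and the 4 furthest below (blue) the running median at their span (black bars) in each span class. Genes were ranked under the conditions given in the text. MYC lies 2.15 below its bar and SGK1 3.08 above it.

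Pathways were described with 37 gene lists. Each was read against the shares of all tested genes that rose (33.6%) and fell (28.8%) and against the median of 0.06. Counts above and below like span were read against 27.2% and 29.1% of all tested genes. A list with shares near these is not set apart by them. Of 30 immediate early genes, the first to respond to growth factors and stress, 21 rose and 2 fell, with a median log2 change of 1.10, and 18 were above genes of like span. EGR3, a zinc finger transcription factor, had 7.61, 7.20 and 7.29 CPM at 3 h and 1.404, 1.37 and 1.36 CPM at 0 h (log2 change 2.42). CCN1, another matrix target of YAP, rose by 2.09 and FOS, the founding AP-1 subunit, by 1.96. EGR1 did not pass (0.04, adjusted p = 0.548), and MYC and KLF6 (-0.41) fell. Genes of ERK feedback went both ways. HBEGF, PHLDA1, SPRED3 (1.32), SPRY4 (1.11) and DUSP6, the phosphatase of ERK (0.91), rose, with 10 of 20 in all, and 5 fell, led by the long SPRED2 (-2.43) and SPRED1 (-1.92). Of 9 phosphatases of stress kinases DUSP1 (0.93), DUSP4 (0.57) and 2 others rose, and DUSP16, of 89.6 kb, fell by 1.62 on the log2 scale. DUSP22 fell by 0.14, with groups that overlapped.

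Most tested genes of the TGF-beta and Wnt pathways fell. The TGF-beta and BMP pathway had the lowest median of the lists, -0.99, with 23 of 28 members that fell and 5 that rose, and 22 were below genes of like span. All 10 receptors of the list fell, among them BMPR1A, the type I BMP receptor, with 11.05, 9.34 and 8.24 CPM at 3 h and 57.7, 50.1 and 49.7 CPM at 0 h (log2 change -2.46). The 5 members that rose are targets of the pathway: ID2 (1.67), ID1 (1.26), the inhibitory SMAD7 (0.40), ID3 (0.37) and ID4 (0.36). Of these ID2, ID1 and SMAD7 were above genes of like span, and ID3 and ID4 were not. The groups did not overlap for 4 of the 5. ID2, an inhibitor of helix-loop-helix factors, averaged 75.8 ± 16.7 CPM at 3 h and 23.8 ± 1.03 CPM at 0 h (SD, n = 3 each), and ID1 had 26.7, 38.6 and 38.5 CPM at 3 h and 11.4, 16.6 and 15.3 CPM at 0 h. Of 30 Wnt pathway genes 19 fell and 5 rose (median -0.73, 20 below like span). LRP6, the Wnt coreceptor, fell by 1.53 on the log2 scale, APC and GSK3B, of the complex that destroys beta-catenin, by 1.38 and 1.51, and the nuclear factor TCF7L2 by 1.99. Of the Wnt receptor genes FZD2 (-1.15), FZD3 (-0.56) and FZD6 (-0.18) fell, whereas FZD7 (1.00), FZD1 (0.52) and FZD4 (0.30) rose. Among the rises FZD7 was above genes of like span (departure 0.63), while FZD1 (0.11) and FZD4 (-0.05) did not depart from them. FZD4 lost its call with library totals (adjusted p = 0.354) and in the fit on the 6 WT libraries (adjusted p = 0.104). In the Notch pathway the ligand DLL4 (3.23), the glycosyltransferase LFNG (3.04) and the targets NRARP (1.38), HES6 (0.96), HEY1 (0.80) and HES1 (0.60) rose, while the coactivators MAML3 and MAML2 (-2.38), RBPJ (-0.72) and NOTCH2 (-0.54) were among 8 of 21 that fell.

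Receptor tyrosine kinases showed 20 falls and 4 rises among 30 tested (median -0.51). KIT, the receptor of stem cell factor, had 4.24, 3.73 and 3.89 CPM at 3 h and 18.4, 15.7 and 17.7 CPM at 0 h (log2 change -2.13), and EPHA4 fell by 1.93 and INSR, the insulin receptor, by 1.65. EPHB3, of 20.6 kb, went the other way, with 9.87, 14.6 and 14.6 CPM at 3 h and 3.48, 3.27 and 3.38 CPM at 0 h. Of 26 axon guidance and neuronal adhesion genes with a median span of 269.8 kb 17 fell, such as SEMA3A (-1.93) and NRXN3 (-1.46), and none passed as a rise, where 9.37% of genes of 100 to 300 kb and 7.5% of longer ones did. With the running median taken off, 14 were below and 5 above genes of like span.

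As a list, the p53 targets had a median close to that of all tested genes. Of 26 targets 11 rose and 6 fell, with a median of 0.07 that became -0.13 with library totals. CDKN1A, the inhibitor of cyclin-dependent kinases, had 52.0, 63.3 and 66.7 CPM at 3 h and 31.2, 36.9 and 34.9 CPM at 0 h (log2 change 0.82), and PLK2 (2.17) and GADD45A (1.95) rose further. MDM2, the ligase that degrades p53, had 150, 115 and 113 CPM at 3 h and 241, 212 and 215 CPM at 0 h (log2 change -0.82, departure -0.80), and PPM1D, a phosphatase that turns the response off, fell by 0.78. In the BCL2 family the proapoptotic PMAIP1 (1.05) and BIK (1.17) and the protective MCL1 (0.46) rose, and the protective BCL2, of 197 kb, fell by 1.41.

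Of 33 nucleotide excision repair genes 14 rose and 5 fell, and with library totals 8 rose and 14 fell. RPA3, the small subunit of the single-strand binding protein RPA, had 66.9, 37.9 and 37.6 CPM at 3 h and 25.1, 22.8 and 23.6 CPM at 0 h (log2 change 0.99), and GTF2H5, of TFIIH, rose by 0.75. ERCC6, which encodes CSB, had 13.8, 14.95 and 14.98 CPM at 3 h and 23.4, 23.99 and 23.05 CPM at 0 h, and its log2 change of -0.69 was 0.38 below genes of its span (departure -0.38, adjusted p = 7.3e-06). STK19 had 21.8, 25.0 and 26.2 CPM at 3 h and 17.8, 19.5 and 19.7 CPM at 0 h. Its log2 change of 0.36 (adjusted p = 2.28e-05) had an adjusted p of 0.0566 with library totals, and its departure was 0.02. Among 16 ATR checkpoint genes 5 rose and 6 fell, ATR itself with 45.6, 42.6 and 38.9 CPM at 3 h and 58.0, 47.7 and 50.1 CPM at 0 h (log2 change -0.29, departure 0.08 with an adjusted p of 0.297).

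Genes of S-phase entry mostly rose and mitotic genes mostly fell. Of 32 genes of G1/S and replication 26 rose and 4 fell (median 0.37), and with library totals 19 rose and 6 fell. CCNE1, the cyclin of S-phase entry, had 126, 124 and 128 CPM at 3 h and 58.9, 56.3 and 56.8 CPM at 0 h (log2 change 1.14), and ORC6, of the origin recognition complex, rose by 0.94, E2F1 by 0.77 and PCNA by 0.70. Of 30 mitotic genes 17 fell and 3 rose, with 21 below genes of like span. KIF23, a kinesin of cytokinesis, had 95.8, 80.0 and 81.0 CPM at 3 h and 214, 184 and 181 CPM at 0 h (log2 change -1.17), CENPA, the centromeric histone, fell by 1.12 and AURKA by 0.71, while NEK2 rose by 0.54. Of 26 homologous recombination and Fanconi genes 13 fell, led by BARD1 (-1.29) and FANCM (-1.17), and 3 rose. Of 51 replication histone genes tested 24 rose and none fell, with a median of 0.75. Their transcripts mostly lack a poly(A) tail and many are near-identical, so reads in these libraries may be shared between copies.

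Transcription and chromatin genes were next. Of 12 RNA polymerase II subunits 11 rose, with a median of 0.52, and 5 were above and 2 below genes of like span. POLR2A, the catalytic subunit, had 293, 540 and 528 CPM at 3 h and 263, 299 and 295 CPM at 0 h, with replicate 1 at 3 h close to the untreated libraries. POLR2B alone fell (-0.22). Around P-TEFb 5 of 12 genes rose, and 2 were above and 8 below genes of like span. HEXIM1 (2.87) and MEPCE (0.67), parts of the 7SK particle, were the 2 above, and their groups did not overlap. LARP7 (0.34), of the same particle, and the kinase CDK9 (0.22) rose with groups that overlapped and were not above genes of like span. The fit on the 6 WT libraries called 2 rises and 5 falls in this list. AFF1 (-1.51), ELL (-0.96) and AFF4 (-0.76), of the super elongation complex, fell. AFF1 had 14.2, 14.1 and 13.7 CPM at 3 h and 42.4, 38.7 and 38.6 CPM at 0 h. With library totals only HEXIM1 and MEPCE rose, and 7 of the 12 members fell in both scalings. Of 32 histone lysine methyltransferases and demethylases 24 fell and 2 rose (median -0.52), with 21 below genes of like span. KMT2E fell by 1.44, the demethylase KDM6A by 1.49, and SETD2, which methylates H3K36 behind elongating polymerase, had 42.2, 42.2 and 42.0 CPM at 3 h and 104, 88.3 and 92.9 CPM at 0 h (log2 change -1.18). Mediator showed 15 falls among 32, MED13L lowest at -1.62, and 9 rises, MED18 highest at 1.26. Splicing regulators were led by CLK1, a kinase of SR proteins, with 83.9, 57.0 and 58.8 CPM at 3 h and 23.6, 20.2 and 20.5 CPM at 0 h (log2 change 1.63).

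The compact genes of translation, respiration and protein turnover rose with small steps and few exceptions. Of 81 cytosolic ribosomal protein genes tested 80 rose and none fell, with a median of 0.71, and 68 were above genes of like span. These genes made up 11.3%, 9.50% and 9.65% of all counts at 3 h and 7.24%, 7.31% and 7.23% at 0 h. Replicate 1 at 3 h was the highest, and without replicate 1 of both groups the same number of genes rose. RPS27A had 1543, 931 and 934 CPM at 3 h and 651, 556 and 568 CPM at 0 h (log2 change 0.94). All 35 nuclear genes of oxidative phosphorylation rose (median 0.56, 25 above like span), as did 28 of 31 proteasome subunits (0.50, 23 above) and 69 of 78 mitochondrial ribosomal proteins (0.40, 40 above and 10 below). In the fit on the 6 WT libraries alone, the genes above like span numbered 26 cytosolic ribosomal proteins, 10 of oxidative phosphorylation, 8 proteasome subunits and 14 mitochondrial ribosomal proteins, and 30 of the last list rose. Without replicate 1 of both groups the genes above like span numbered 50, 20, 18 and 27 in these 4 lists, and with library totals 45 mitochondrial ribosomal proteins rose. MRPS27, of 107 kb, was the mitochondrial ribosomal protein gene that fell (-0.29). MRPL33, annotated over 216 kb, had 57.6, 30.1 and 31.5 CPM at 3 h and 23.0, 20.5 and 19.3 CPM at 0 h, 1.36 above its span. The median extent of its coding transcripts is only 8.02 kb. Of the 13 mitochondrially encoded genes, transcribed by another polymerase, 10 rose (median 0.44), with MT-ND1 at 0.94. Only 2 of them were above genes of like span and 1 was below, with a median departure of -0.01.

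Of 20 ATF4 targets, genes of the integrated stress response, 14 rose and 3 fell (median 0.48). DDIT3, the proapoptotic factor CHOP, had 39.7, 33.8 and 31.3 CPM at 3 h and 7.53, 7.43 and 8.16 CPM at 0 h (log2 change 2.17), and CHAC1 rose by 1.60, while SLC7A11, the cystine transporter, fell by 0.65. In the unfolded protein response 14 of 20 rose, among them the cochaperone gene DNAJB9 (1.04) and XBP1 (0.72), and 5 fell, among them the sensor kinase EIF2AK3 (-1.38). Heat shock genes had 12 rises among 18, with HSP90AA1 at 0.69, while HSPA1B fell by 0.96, an uncertain value because of its near-identical copy HSPA1A, which held a mean of 1.47 CPM at 3 h and 1.21 CPM at 0 h. Of 27 hypoxia and glycolysis genes 18 rose, for example VEGFA (0.81) and ALDOC (1.57), and HK2 (-0.70) was among the 5 that fell. Of 23 cholesterol genes 10 rose and 8 fell, with a median of 0.05 close to that of all tested genes. The fit on the 6 WT libraries called 3 rises and 5 falls among them. INSIG1, a target of SREBP2 that spans 12.5 kb, fell by 0.96 on the log2 scale and departed from genes of its span by -1.302.

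Of 18 NF-kB genes 6 rose, NFKBIA (0.69) among them, and 4 fell, REL (-1.36) and NFKB1 (-1.17) among them. Among 21 interferon-stimulated genes 8 rose, IRF1 (1.84) and ISG15 (1.09) among them, and 2 fell. Among 22 clock genes 12 fell, RORA (-1.67), CLOCK (-1.29) and BMAL1 (-1.19) lowest, and 4 rose, NFIL3 (0.73) highest. Of 38 HOX genes 13 rose and 13 fell, and although their median span is 4.2 kb, 20 lay below genes of like span and 7 above. HOXB5 had 38.8, 41.2 and 42.4 CPM at 3 h and 12.7, 13.7 and 15.3 CPM at 0 h (log2 change 1.55). Of 234 zinc finger genes of chromosome 19 96 rose and 58 fell (median 0.13), and 76 were above and 76 below like span. Of 23 hnRNP genes 16 rose and 2 fell, with 3 above and 4 below like span. Of 23 SR proteins and splicing regulators 12 rose and 5 fell, with 8 above and 7 below like span. There were 12 lists with a positive median with TMM and a negative one with library totals: p53 targets, Notch, nucleotide excision repair, ATR checkpoint, NF-kB, interferon-stimulated genes, the BCL2 family, cholesterol synthesis, SR proteins, hnRNP genes, HOX genes and the zinc finger genes.

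**Figure D5:**
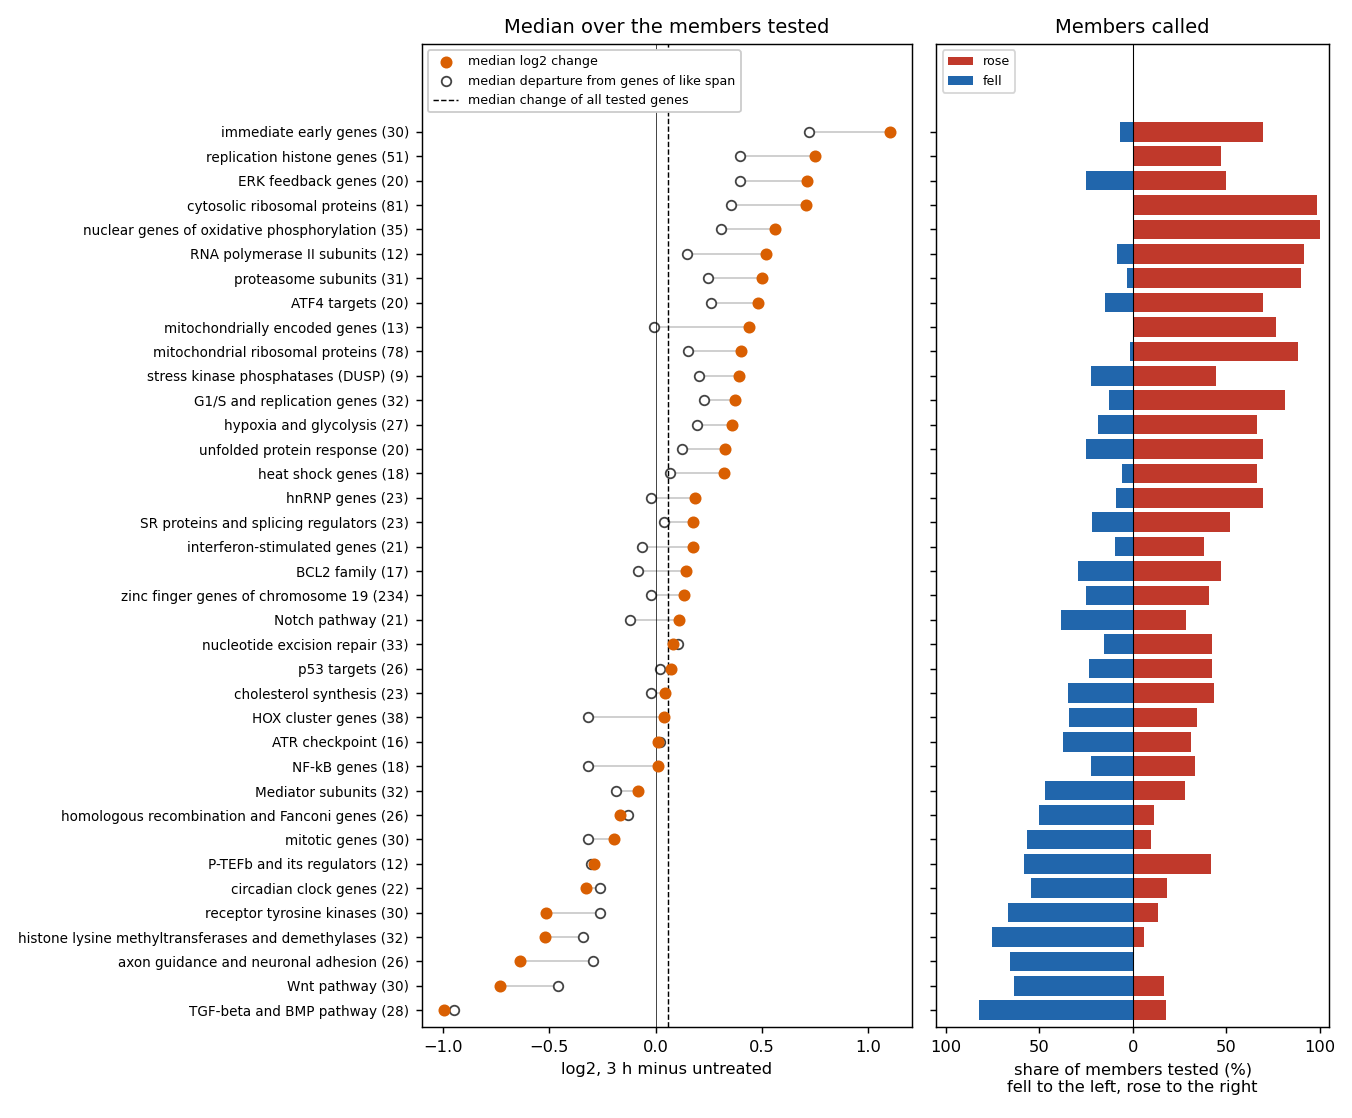
Left, the median log2 change (3 h after UV minus untreated, filled) and median departure from genes of like span (open) of each list, with the number of members tested in brackets. Right, the share of those members that rose or fell. Ribosomal protein and respiratory genes lie to the right with nearly every member called, and TGF-beta, Wnt and axon guidance genes to the left, where the open points of TGF-beta stay near the filled ones.

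The change in WT was set against the mean change of the 3 edited lines over the same interval. It differed for 2733 genes (17.7%), 1923 of them above (12.4%) and 810 below (5.24%), by the interaction contrast of the same fit. The split depended on the scaling: with library totals 322 genes were above and 2094 below. The count moved both ways with single WT libraries. It was 1633 without replicate 1 at 3 h, 1568 without replicate 2 at 0 h and 1668 without replicate 3 at 0 h. It was 3549 without replicate 2 at 3 h, 3695 without replicate 3 at 3 h and 3497 without replicate 1 at 0 h. With replicate 1 of both groups left out it was 1574. By span class the median difference was 0.00 under 3 kb and 0.06 from 100 to 300 kb. In that class the median change was -0.41 in WT and lay at -0.30 in the CSB knockout and at -0.54 and -0.49 in the STK19 knockouts, so the lines did not lie on 1 side of WT. Among the genes that differed most were SPEF1, ID2 and SULT1A3 above and SPRY4, RNF144B, MAFF and BCAR3 below. WT is the only unedited line, and a trait of that line cannot be told apart from the absence of a knockout.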

How the data were processed

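Polyadenylated RNA of 72 libraries was sequenced, of which the 6 WT libraries at 3 h and 0 h carry the main comparison. The values deposited are expected counts per gene, not normalised and written as whole numbers. STAR, RSEM and GRCh38 are named in the submitters' processing notes as aligner, quantifier and build. Versions of both and the annotation release are not given in the sources used here. Coverage tracks were not used. Libraries were made with a directional NEBNext Ultra II kit from RNeasy extracts, per the labels' protocols. Counts per library ran from 36.5 to 212.9 M (10 to the power 6), and the depth limits precision for genes of few counts. Nothing says that replicates were separate cultures, so p-values measure the spread between replicates, which may be technical. That spread was estimated over all 72 libraries, so the p-values and SEs are not those of the 6 WT libraries alone.

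Of 19324 genes, 15470 passed filterByExpr (minimum count 10, minimum total 15). One edgeR 4.0.16 quasi-likelihood fit (R 4.3.3) covered 24 groups with TMM scaling and no covariate. A call needed an adjusted p under 0.05 (Benjamini-Hochberg, all tested genes). Departure from like span was tested by setting the running median of the log2 change over the gene and the 200 genes on either side in span as an offset of the 3 h libraries. Near both ends of the span order the median of the outermost 401 genes was used. In data simulated for that departure on 15346 genes, 47 of 50 genes at 1.5-fold and 50 of 50 at 2-fold, 4-fold and 0.5-fold passed, and 10 of 15146 unchanged genes passed as well. The simulated libraries of a group were drawn independently, without the shared deviation of replicate 1 seen in the real ones. These rates therefore do not carry over to the real departures. Spans and coordinates are the deposited table's. Exonic length, exon number and transcript extents come from GENCODE 29, which holds 19135 of the 19324 IDs with 93.5% of spans within 10%. Promoter windows come from RefSeq (GRCh38.p14), matched by symbol for 12136 tested genes and for 11 of the 12 largest rises.

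Same-numbered libraries of the 2 groups deviated together (Pearson 0.76, 0.57 and 0.64 over genes), which by the rule used pairs them. The pairing comes from the data, not from the labels, and replicates 2 and 3 also correlated across numbers (0.59 and 0.64). The deviations cancel within each group, so these correlations are not independent of one another. Alternatives were RLE scaling, library totals, no filter, DESeq2 1.42.0, the replicate block, the 6 WT libraries alone, each library left out, replicate 1 of both groups left out, other windows, intronic length, and trends within tertiles of exonic length. Trends over transcript extent, and within tertiles of GC content with the block, were added after the data were seen. Named genes had a call, no overlap between groups, a symbol and, over the 6 libraries, a mean log2 CPM of 1 or more. They are the 12 largest rises and falls, the 4 largest departures each way in 4 span classes (edges 10, 50 and 150 kb), up to 3 rises and 3 falls of a list, the 4 largest differences each way from the edited lines, and always ERCC6, STK19, ATR, CDKN1A, MDM2 and HEXIM1. Other list members are given with their values. A few named genes and 1 further list are not reported here. The comparison, lists and rules were chosen with earlier results of these data known.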

Additional observations from a re-analysis of the deposited data

Results flagged for a closer look

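The change at 3 h against 0 h in WT differed from the mean change of the 3 edited lines for 2733 genes, by the test of the difference itself (edgeR interaction contrast, adjusted p under 0.05). The largest positive differences among the named genes given here were those of SPEF1 (1.46 on the log2 scale), ID2 (1.17) and SULT1A3 (1.01). The 4 largest negative ones were those of SPRY4 (-1.39), RNF144B (-1.05), MAFF (-1.03) and BCAR3 (-0.93). ID2 rose by 1.67 in WT, and by 0.41, 0.52 and 0.58 in the CSB knockout and the first and second STK19 knockouts. SPRY4, a feedback inhibitor of receptor signalling, rose by 1.11 in WT and by 1.54, 2.33 and 3.62 in those lines. RNF144B, a ubiquitin ligase gene of 81.5 kb, fell by 2.17 in WT and by 2.10 in the CSB knockout, with changes of -0.67 and -0.58 in the STK19 knockouts. SPEF1 had 4.49, 8.55 and 9.45 CPM at 3 h and 0.366, 0.743 and 0.605 CPM at 0 h in WT, so its difference rests on few counts at 0 h. SULT1A3 has a near-identical copy, so its counts are uncertain, and without replicate 3 at 0 h its difference had an adjusted p of 0.0762.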

How the results depend on the processing

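The replicate block gave 9913 calls, 8990 departures from like span and 3357 differences from the edited lines, and moved none of these counts by over 1.5 times. The fit on the 6 WT libraries gave 5925 calls (2508 rises and 3417 falls), 4753 departures, and span class medians of 0.38, 0.33, 0.19 and -0.14 from under 3 to 100 kb. With library totals the 6 medians were 0.24, 0.19, 0.042, -0.29, -0.61 and -0.63 from the shortest class to the longest. RLE scaling gave 0.41, 0.27 and -0.065 from 3 to 100 kb. No filter gave 0.14 and 0.36 under 10 kb, and -0.00849, -0.33 and -0.28 over 30 kb. Intronic length in place of span gave 0.35, 0.20 and -0.12 from 3 to 100 kb. With replicate 1 of both groups left out the 10 to 30 kb median was 0.23 and 1574 genes differed from the edited lines. The causes were not tested. With each library left out in turn, calls numbered 9123 to 9626, departures 8007 to 8631 and differences from the edited lines 1568 to 3695. The class medians then ran from 0.38 to 0.50 under 3 kb, 0.33 to 0.43 from 3 to 10 kb, 0.22 to 0.26 from 10 to 30 kb, -0.12 to -0.084 from 30 to 100 kb, -0.42 to -0.39 from 100 to 300 kb and -0.43 to -0.40 over 300 kb. DESeq2 made 6574 calls (3139 rises and 3435 falls). The genes named for their change, departure or difference and those always named kept direction and side of the threshold in 1344 of their values and lost the call in 3: STK19 with library totals (adjusted p 0.0566), ATR with DESeq2 (0.0538) and SULT1A3 against the edited lines without replicate 3 at 0 h (0.0762). Among all genes named by the rule, those of the lists included, library totals took the call from FZD4 (adjusted p 0.354) and TIMELESS (0.642) and turned KIF2C to -0.073 (0.0652), and the fit on the 6 WT libraries took it from FZD4 (0.104), SUV39H1 (0.112), TIMELESS (0.127), KIF2C (0.411), HSPE1 (0.0968), BCL2L12 (0.0788), IDI1 (0.109), HNRNPC (0.0598) and HOXD11 (0.0633). Without replicate 1 of both groups the rises of mitochondrial ribosomal proteins numbered 60 and those of P-TEFb and its regulators 3, and the rises and falls of the other lists moved by at most 4. Of the lists with at least 5 rises, the fit on the 6 WT libraries gave fewer by over 1.5 times in 16 of 30 and library totals in 12 of 30, and for lists with at least 5 genes above like span that fit did so in 15 of 25.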
